A study of Mus musculus with 8 samples.

Results

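Canonical histone genes were examined as a family in messenger RNA libraries from mouse skin. A gene was a member if its symbol began with Hist1h to Hist4h, or with H1f, H2ac, H2bc, H3c or H4c followed by a digit. By this rule 56 of the 18770 listed genes were members: 7 for H1, 13 for H2A, 12 for H2B, 12 for H3 and 12 for H4. The 7 for H1 include 2 replacement H1 genes, H1f0 and H1f10, which the rule takes in by their symbols. The libraries came from the dorsal skin of C57BL/6 wildtype mice (C57BL/6J in the study's methods), 7 to 8 weeks old and, by the same methods, male. Hair was removed by depilation, the skin was treated daily, and dermis with its hair follicles was collected at D4 after keratinocytes between the follicles had been taken off. The vehicle group (VC) received 65% ethanol, and the alpinetin group (AP) received the plant flavonoid alpinetin in the same solvent, with 4 libraries in each group. RNA was selected with oligo-dT, which captures RNA that ends in a polyA tail.

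Histones H2A, H2B, H3 and H4 form the spool on which DNA is wound, and H1 binds the DNA that enters and leaves it. Most of their genes lie in clusters, are read mainly while a cell copies its DNA, and make mRNAs that end in a short stem-loop in place of a polyA tail. The stem-loop binding protein holds this end, and some histone genes, among them the replacement H1 genes, make polyadenylated mRNA instead.

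Values across a group are listed in the order of its libraries, from replicate 1 to replicate 4, which are named VC.1 and AP.1 onward. The reads on listed genes numbered 7264151, 6833615, 6479827 and 6454563 across VC, and 8507783, 10853773, 11190113 and 8863517 across AP. The 13 mitochondrially encoded genes took 54.3%, 44.9%, 42.1% and 52.3% of the reads across VC. Across AP they took 11.1%, 7.85%, 5.32% and 10.3%, so that the groups did not overlap. Without these genes, 3080758 to 3762217 reads remained in the VC libraries and 7561598 to 10594787 in the AP libraries, and the AP median was 2.54 times the VC median. Reads on members are given as RPM, reads per 1000000 reads on listed genes other than the mitochondrially encoded ones. With reads drawn down to even depth, and with libraries scaled by their totals without mitochondrially encoded genes, the same 2 members passed the test described below, H1f10 and H2bc4, and none was higher. Of all genes tested, 4.93% were higher and 2.94% lower at even depth, and 5.99% and 3.38% with that scaling. A floor of 3 reads corresponded to 4.10 to 5.63 normalized counts in the VC libraries and to 1.49 to 2.18 in the AP libraries. Intervals and floors cover counting error only.

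The members gave few reads. The 56 members held 2823, 2687, 2147 and 2232 reads across VC and 4104, 4158, 6626 and 4267 across AP, 29044 in all. H1f0 alone held 49.5% of them, and the 4 members with most reads, H1f0, H2bc4, H1f2 and H1f10, held 87.9%. Among the other members H4c9 had the most, with 456. Over the 8 libraries 44 members had fewer than 100 reads, and the lowest had 6. Across VC, 21, 13, 12 and 19 members had no read, against 4, 5, 4 and 8 across AP. With every library drawn down to 3080758 reads without mitochondrially encoded genes, 12, 12, 15 and 16 members had no read across AP. At even depth the groups thus overlapped in the number of members without a read.

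All 56 members together held 851, 714, 572 and 724 RPM across VC and 543, 416, 625 and 537 RPM across AP. In VC.1 the 95% Wilson interval was 820 to 883 RPM. The groups overlapped, with means of 715 ± 114 and 530 ± 86.4 (SD, n = 4) and a ratio of 0.741, which turned to 1.33 with all reads as the denominator. The 54 replication-dependent members together held 431, 345, 290 and 348 RPM across VC. They held 257, 207, 230 and 216 RPM across AP. Every AP library lay below every VC library, with means of 354 ± 58.0 in VC and 227 ± 21.8 in AP (SD, n = 4) and a ratio of 0.643. The direction turned when all reads were the denominator, where the same members held 180 ± 15.6 reads in VC and 207 ± 18.4 in AP per 1000000 of all reads (SD, n = 4), a ratio of 1.15. Without H2bc4 the other 53 held 228, 202, 159 and 187 RPM across VC and 155, 128, 146 and 128 RPM across AP, still without overlap and with a ratio of 0.717. With all reads as the denominator the ratio became 1.28, and every AP library (115 to 138) lay above every VC library (89.2 to 111). Without H2bc4 and H1f2 the remaining members held 146, 107, 87.7 and 60.1 RPM across VC and 61.6, 52.4, 63.2 and 57.6 across AP. Here the groups overlapped, through VC.4, while the ratio of the means was 0.586, which became 1.05 with all reads as the denominator. In bulk RNA, fewer cells that express a gene and less of its RNA per cell cannot be told apart.

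By class, H2B was the one whose groups did not overlap. Its 12 genes held 240, 168, 149 and 173 RPM across VC and 118, 95, 100 and 100 RPM across AP. The AP mean was 0.566 of the VC mean in RPM and 1.02 of it when all reads were the denominator, where the groups overlapped. H2bc4 alone held 85.9% of the H2B reads. The other 11 H2B genes held 37.4, 24.7, 17.9 and 12.3 RPM across VC and 15.6, 16.4, 16.4 and 12.5 RPM across AP, with overlap and a ratio of 0.660 that became 1.19. The 5 replication-dependent H1 genes held 118, 108, 83.2 and 135 across VC and 98.5, 80.4, 90.4 and 78.9 across AP, with overlap and a ratio of 0.783 that became 1.41 with all reads as the denominator, where every AP library lay above every VC library. The 13 H2A genes held 13.9 ± 4.07 in VC and 8.99 ± 2.48 in AP (SD, n = 4). The 12 H3 genes held 19.5 ± 7.84 and 12.3 ± 1.17 (SD, n = 4). The 12 H4 genes held 26.4 ± 11.8 and 15.6 ± 2.72 (SD, n = 4). In H2A, H3 and H4 the groups overlapped, and their ratios of 0.645, 0.632 and 0.590 became 1.12, 1.1 and 1.06 with all reads as the denominator. The pair of replacement H1 genes held 362 ± 57.7 in VC and 303 ± 77.5 in AP (SD, n = 4), also with overlap, and their ratio of 0.837 became 1.5.

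**Figure D1:**
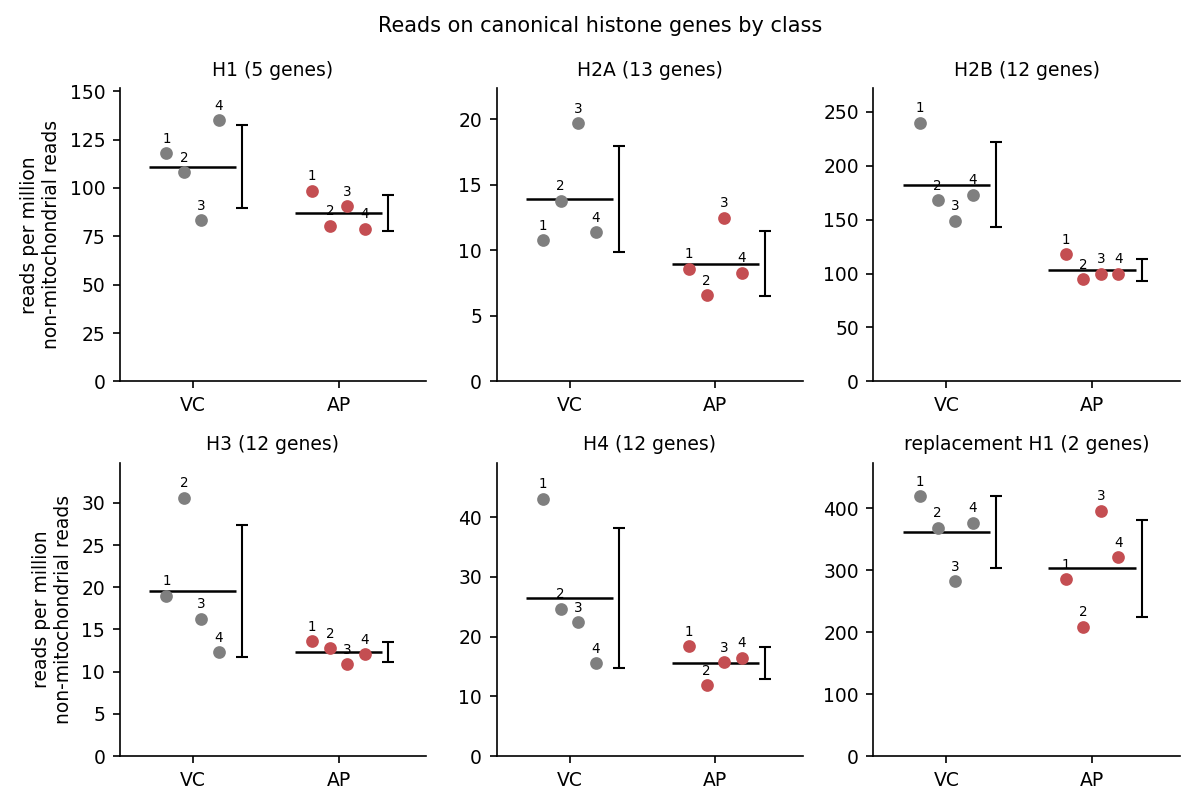
Reads on each class of canonical histone genes in RPM, relative to non-mitochondrial reads, with a point for each library (numbered), a line at the group mean and a bar of 1 SD to its right. The AP libraries lie below the VC libraries for H2B (95 to 118 against 149 to 240) and overlap them in the other classes; the H2B groups overlap without H2bc4, and with all reads as the denominator they overlap and the direction turns.

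Of the 56 members, 31 reached 3 normalized counts in 4 or more libraries and were tested, and 25 did not. The test was limma's moderated linear model on log2(normalized count + 1), two-sided and adjusted over 15964 genes. At an adjusted p under 0.05, 2 members were lower in AP, H2bc4 and H1f10, where 4.0% of all genes tested were lower. No member was higher at that threshold in limma, where 6.33% of all genes tested were. At an unadjusted p under 0.05, 1 member was higher and 5 were lower, against 17% and 13.3% of all genes tested. DESeq2 and edgeR on the recovered reads also called 0 members higher, against 8.88% and 6.28% of all genes tested. DESeq2 called 4 of 56 members lower, against 7.43% of all genes, and edgeR 2 of 31, against 4.46%. At p under 0.01 and a fold change over 1.5, 1 member was higher, H2ac19, and 2 were lower, against 8.26% and 5.32% of all genes tested. Every AP library was below every VC library for 3 tested members, against 8.91% of all genes tested, and above for 1, against 10.3%. The median log2 fold change of the tested members was -0.61, and that of all genes tested was 0.06. Fits that kept all 56 members gave -0.34 with no filter on low values and -0.97 in DESeq2, and a pseudocount of 5 gave -0.42 over the 31. When libraries were scaled by their total counts the members' median turned to 0.17, while the median of all genes moved to 0.90. In that setting 54.2% of all genes tested were called higher and 0.438% lower, against 12.9% and 0% of the tested members.

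The tested members divided by class as follows. For H1, 6 of 7 were tested, and their median log2 fold change was -1.0. For H2A, 7 of 13 were tested, with a median of -0.61, and for H2B 8 of 12, also with -0.61. For H3, 6 of 12 were tested, with a median of -0.47, and for H4 4 of 12, with -0.46. A log2 fold change below 0 was found in 23 of the 31, or 74.2%, against 46.5% of all genes tested. Under total-count scaling it was found in 15 of the 31, or 48.4%, against 8.14% of all genes. VC.1 was the highest library for 16 of the 31, where it was the highest for 18.8% of all genes tested.

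**Figure D2:**
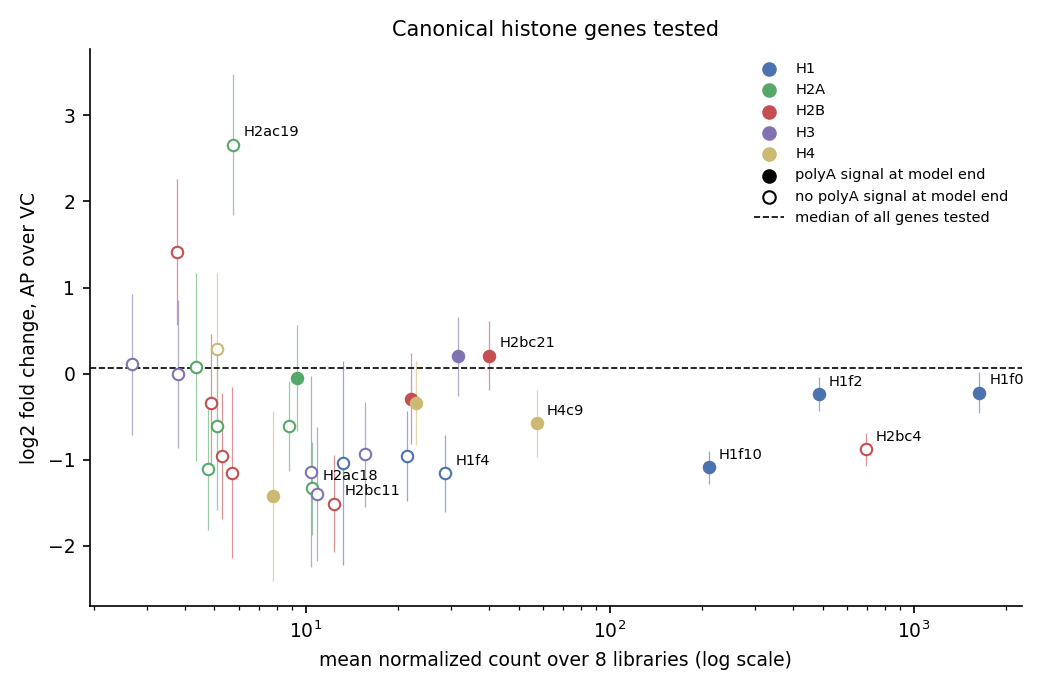
Log2 fold change of AP over VC (vertical, with 1 SE) against mean normalized count over the 8 libraries (horizontal, log scale) for the 31 members tested, coloured by class, with filled points for members whose transcript model ends near a polyA signal. Most points lie below the dashed median of all genes (0.06), H2ac19 is the highest at 2.66, and under total-count scaling the members' median turns to 0.17.

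Among linker histones, H1f10 (ENSMUSG00000044927, chr6:87980421-87981637, minus strand, mm10), a replacement H1 made outside DNA replication, fell. Its normalized counts were 264, 316, 265 and 300 across VC and 158, 107, 155 and 120 across AP. The highest AP library lay well under the lowest VC library. The means were 286 ± 26.1 and 135 ± 25.3 (SD, n = 4), a 2.12-fold lower level in AP, below the VC mean in 4 of 4 AP libraries. The log2 fold change was -1.09 (SE 0.19, adjusted p = 0.0104 in limma). An exact two-sided permutation test over the 70 assignments of libraries gave p = 0.0286, the smallest it can give. Total-count scaling ended the call, with -0.23 and an adjusted p of 0.428.

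H1f0 (ENSMUSG00000096210, chr15:79028450-79030504, plus strand) is the replacement H1 of resting and differentiated cells and had the highest level per kb of all members. Its normalized counts were 2270, 1735, 1180 and 1877 across VC and 1411, 1020, 1934 and 1705 across AP. The groups overlapped, with the lowest value in AP.2 and the highest in VC.1. In limma its log2 fold change came to -0.22 (SE 0.24, adjusted p = 0.566), and an exact permutation gave p = 0.486. Under total-count scaling it turned to 0.65, with an adjusted p of 0.0222.

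H1f2 (ENSMUSG00000036181, chr13:23738808-23740367, plus strand), a replication-dependent linker histone, had 497, 526, 367 and 733 normalized counts across VC. Across AP it had 511, 408, 436 and 401, so the groups overlapped. Its log2 fold change of -0.24 (SE 0.20, adjusted p = 0.459) turned to 0.63 under total-count scaling, with an adjusted p of 0.0192. H1f4, another replication-dependent linker histone, had 74.6, 22.2, 28.7 and 37.5 across VC and 14.5, 11.9, 14.9 and 24.3 across AP. A single AP library, AP.4, reached into the VC range. The log2 fold change of -1.16 (SE 0.45) did not pass in limma, with an adjusted p of 0.114, and passed in DESeq2, with 0.0383.

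Among core histones, H2bc4 (ENSMUSG00000018102, chr13:23684199-23692908, plus strand), which encodes an H2B protein, fell. Its normalized counts were 1222, 798, 670 and 928 across VC and 559, 424, 443 and 498 across AP. The groups did not overlap, and VC.1 was the highest library. The means were 905 ± 236 and 481 ± 60.9 (SD, n = 4), a 1.88-fold lower level in AP, below the VC mean in 4 of 4 AP libraries. Its log2 fold change came to -0.88 (SE 0.19, adjusted p = 0.0212), while an exact permutation gave p = 0.0286, again the smallest possible. The call was lost without AP.2 (adjusted p = 0.0621), without AP.3 (0.0728) or without AP.4 (0.0554). Total-count scaling gave -0.01 and an adjusted p of 0.948.

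H2bc21, an H2B gene on chromosome 3, had 70.9, 34.0, 20.5 and 30 normalized counts across VC and 50.8, 45.3, 37.4 and 31.5 across AP. The groups overlapped, and the log2 fold change of 0.21 (adjusted p = 0.760) became -0.04 without VC.3. It was 1.06 under total-count scaling, with an adjusted p of 0.0336. H2bc11, an H2B gene of the chromosome 13 cluster, had 14.6, 26.6, 21.8 and 11.3 across VC and 4.35, 2.70, 6.48 and 11.4 across AP. AP.4 reached the lowest VC library, and the log2 fold change of -1.51 had an adjusted p of 0.0973 in limma and 0.0492 in DESeq2.

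The pair of H2A genes H2ac18 and H2ac19 share most of their sequence with other genes, and neither passed the test across all genes. H2ac18 (chr3:96245497-96246082, plus strand) had 14.6, 10.3, 12.3 and 24.4 normalized counts across VC and 3.63, 3.24, 6.98 and 8.58 across AP. H2ac19 (chr3:96239749-96240276, minus strand) had 0, 0, 6.83 and 0 across VC and 12.3, 8.63, 11 and 7.15 across AP. In neither gene did the groups overlap, with H2ac18 lower and H2ac19 higher in AP, and the exact permutation p, not adjusted for the number of genes, was 0.0286 for each. For H2ac18 the log2 fold change of -1.33 had an adjusted p of 0.126 in limma and 0.0788 in DESeq2, and 0 of 19 alternatives called it. Of the 50-base words of the H2ac19 transcript, 100% also occur in other genes, and of those of H2ac18 89.4% do. Their sum was 14.6, 10.3, 19.1 and 24.4 across VC and 16, 11.9, 17.9 and 15.7 across AP. The summed groups overlapped, with a log2 difference of -0.10 and an exact two-sided permutation p of 0.771. For H2ac19 alone, the log2 fold change of 2.66 (adjusted p = 0.0598) rested on 5 reads in VC and 65 in AP. It was 3.36 with a pseudocount of 0.5 and 1.24 with 5, and passed with neither (adjusted p = 0.0648 and 0.0585 in limma). H2ac19 met the filter on low values through the 4 AP libraries alone. It passed without that filter (0.0459) and under total-count scaling (0.00690). It also passed without VC.3 (3.40, adjusted p = 0.0248), but VC.3 held all of its VC reads. That pass rests on a VC group at 0 without spread, and no conclusion is drawn from it. It did not pass in DESeq2 (0.107), in edgeR (0.146), at even depth (0.0730) or without any other single library (0.0960 to 0.167).

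**Figure D3:**
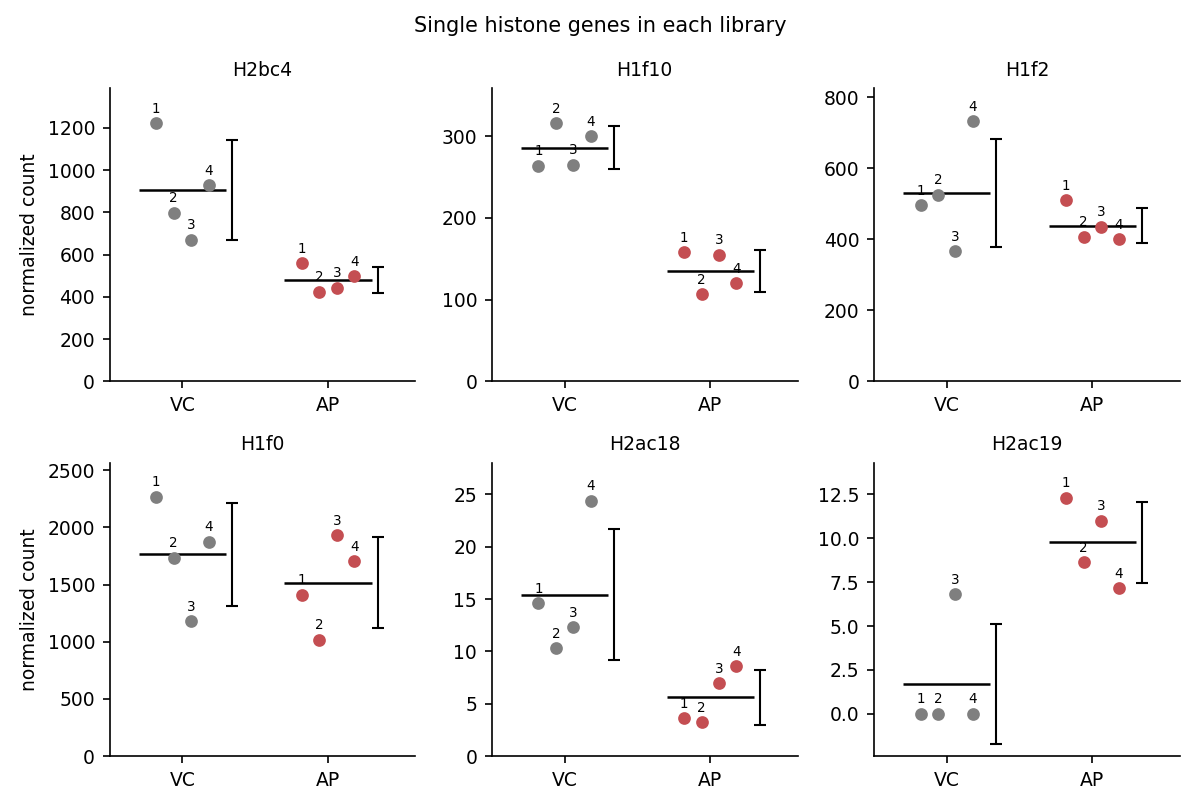
Normalized counts of 6 histone genes in each library (numbered points), with a line at the group mean and a bar of 1 SD to its right. The groups do not overlap for H2bc4, H1f10, H2ac18 and H2ac19 and overlap for H1f2 and H1f0; under total-count scaling the log2 fold change of H2bc4 is -0.01, and those of H1f2 and H1f0 turn to 0.63 and 0.65.

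Of the H2A genes with the highest levels per kb, H2ac8 had 3.64 to 20.7 normalized counts in VC and 4.31 to 12.9 in AP, and H2ac13 had 1.88 to 12.3 and 1.45 to 4.48. Their groups overlapped, with log2 fold changes of -0.05 and -1.11 and adjusted p-values of 0.969 and 0.313 in limma. That of H2ac8 turned to 0.71 under total-count scaling. Among H3 genes, H3c14 had 14.6 to 56.2 in VC and 22.9 to 42.1 in AP (log2 fold change 0.20, adjusted p = 0.803). H3c15 had 7.50 to 48.8 and 4.31 to 12.3 (-0.94, adjusted p = 0.322), and H3c3 had 1.88 to 27.3 and 1.45 to 6.48 (-1.40, adjusted p = 0.250). The H3 groups overlapped in each of these genes. Of the 50-base words of H3c14, 100% also occur in other genes, as do 63.5% of those of H3c15 and 47.0% of those of H3c3. Among H4 genes, H4c9 had 118, 73.9, 51.9 and 37.5 across VC and 60.9, 29.1, 39.4 and 47.2 across AP, with overlap (-0.58, adjusted p = 0.339). H4c8 had 11.3 to 52.8 and 13.5 to 21 (-0.34, adjusted p = 0.675), and H4c11 had 0 to 32.7 and 0.725 to 3.24 (-1.42, adjusted p = 0.359). Under total-count scaling H4c9 turned to 0.27 and H4c8 to 0.49. No H3 or H4 member passed the threshold.

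Per kb of transcript, mean normalized counts over the 8 libraries ran from 1.08 for H3c13 to 799 for H1f0. H2bc4 followed with 599, H1f2 with 311, H1f10 with 173, H4c9 with 78.8 and H4c8 with 49.0. The next members were far lower, at 26.8 for H2bc11 and 17.9 for H2ac18.

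Most members hold the letters of a histone stem-loop soon after the stop codon in their transcript models. Of the 42 members with 60 or more bases after the stop codon, 36 held the letters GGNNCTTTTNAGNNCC within 150 bases, or 85.7%, against 44 of 20384 protein-coding genes, or 0.216%. The 44 genes include these 36 members, and 8 were other genes. H4c17 held the letters in a shorter stretch after the stop, so that 37 members had a stem-loop, which began 21 to 58 bases after the stop. H4 had stem letters of its own. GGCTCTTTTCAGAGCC occurred in 21 members of H1, H2A, H2B and H3, while all 10 H4 stem-loops had other letters. The 6 members with 60 or more bases and no match were H1f0, H1f10, H2bc21, H2bc4, H3c8 and H4c1. The lines below show the stem-loop of 1 member of each class, so that H4 can be set beside the other classes. They are not always the ends of the models. The models ran on past these letters by 840 bases in H1f2, 35 in H2ac18, 23 in H2bc11, 1167 in H3c14 and 330 in H4c9. Capitals mark the stem-loop letters.
H1f2: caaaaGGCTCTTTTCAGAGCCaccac
H2ac18: aaaaaGGCTCTTTTCAGAGCCaccca
H2bc11: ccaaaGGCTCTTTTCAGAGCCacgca
H3c14: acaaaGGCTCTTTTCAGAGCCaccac
H4c9: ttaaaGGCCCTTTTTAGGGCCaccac

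A polyA signal, AATAAA or ATTAAA, lay in the last 50 bases of 12 members, or 21.4%, against 72.9% of all protein-coding genes. These 12 held 21839 reads, or 75.2% of the members' reads, of which the replacement H1 genes H1f0 and H1f10 held 14389 and 1609. Of the 7205 reads of the other 44, H2bc4 held 5340. The median level of the 12 was 16.3 normalized counts per kb against 7.68 for the other 44. Of the 12, 8 also had the stem-loop. Of the 12, 10 were tested, with a median log2 fold change of -0.26, and of the 44 others 21 were tested, with -0.94. The lines below show the last 30 bases of the members with a signal and most reads, with the signal in capitals.
H1f0: aactttaaAATAAAactggaaaggaaaaaa
H1f2: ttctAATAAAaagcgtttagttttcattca
H1f10: ctggggcgcAATAAAcggttccaaccttga
H4c9: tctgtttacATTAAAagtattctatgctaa

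H2bc4, the core histone gene with the most normalized counts per kb in these oligo-dT selected libraries, had neither feature in its model. Levels per kb are of the RNA captured, and RNA without a polyA tail can be missed. The model has 2 exons: exon 1, at chr13:23684199-23684621, holds the stop codon, and exon 2 lies at chr13:23692176-23692908. H2ac6, which lies head to head with it across 250 bases and was chosen for mention after its values were seen, had 3.55 normalized counts per kb against 599 for H2bc4.

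By position, 46 members lie on chromosome 13 and 8 on chromosome 3, with H1f0 on chromosome 15 and H1f10 on chromosome 6. The chromosome 13 members held 12071 reads and the chromosome 3 members 975. On chromosome 13, 24 members were tested, with a median log2 fold change of -0.61, and on chromosome 3 5 were tested, with 0.20. Assignment of reads among the members is uncertain: 27 share more than 50% of their 50-base words with other genes, and 20 overlap another gene model.

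Promoters from RefSeq (GRCm38.p6, 250 bases before the first listed start of each symbol) were found for 51 members, and none for H2bc21, H2bc4, H3c1, H3c7 and H4c14. The motifs were chosen after the values were seen and searched on both strands. CCAAT occurred in 39 of the 51, or 76.5%, against 34.5% of all 27025 promoters, and in 13 of 13 H2A and 10 of 10 H2B promoters. It occurred in 5 of 7 H1 and 8 of 10 H3 promoters, and in 3 of 11 H4 promoters, or 27.3%. Differences between the classes and all promoters were not tested. TATAAA occurred in 24, or 47.1%, against 13%. The octamer ATTTGCAT occurred in 9, or 17.6%, against 1.61%, and these were 5 H2A and 4 H2B promoters. Since some H2A and H2B genes lie head to head, a match can be counted in both genes of such a pair.

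Replacement histones outside the rule are mostly made from polyadenylated mRNA and are used throughout the cell cycle. Of 9 tested, 0 rose and 2 fell in limma, H2ax and H2az2, where 6.33% of all genes tested were higher and 4.0% lower. DESeq2 and edgeR gave the same counts, against 8.88% of all genes higher and 7.43% lower in DESeq2, and 6.28% and 4.46% in edgeR. At an unadjusted p under 0.05, 0 were higher and 3 lower, against 17% and 13.3% of all genes. The median log2 fold change was -0.37, while under total-count scaling 4 were higher and 0 lower, where 54.2% of all genes tested were higher. H2ax, whose protein is phosphorylated at DNA breaks and whose model also holds the stem-loop letters, had 850, 802, 676 and 669 normalized counts across VC and 474, 352, 555 and 479 across AP, without overlap. Its log2 fold change was -0.70 (adjusted p = 0.0304), and the call was lost without AP.2 (0.0811), AP.3 (0.0563), AP.4 (0.0721), VC.1 (0.0677) or VC.2 (0.0555). H2az2, an H2A.Z gene, had 1384, 700, 761 and 737 across VC and 538, 446, 456 and 519 across AP, without overlap. Its log2 fold change was -0.81 (adjusted p = 0.0363), and the call was lost without AP.2 (0.0940), AP.3 (0.107) or AP.4 (0.0813), and at even depth (0.0549). Under total-count scaling these turned to 0.17 for H2ax and 0.06 for H2az2. H3f3a, an H3.3 gene, had 3417 to 4735 in VC and 3397 to 4216 in AP (-0.03, adjusted p = 0.927), which turned to 0.84 under total-count scaling. H3f3b, the other H3.3 gene, had 2922 to 4539 and 2448 to 3357 (-0.25, adjusted p = 0.401), which turned to 0.62. H2az1, the other H2A.Z gene, had 1193 to 1692 and 1592 to 1960 (0.26, adjusted p = 0.296), and under total-count scaling it was called higher (1.13, adjusted p = 4.67e-04).

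Of 16 genes for histone mRNA processing and transcription, 1 rose and 0 fell in limma, against 6.33% and 4.0% of all genes tested. DESeq2 called 2 higher and 1 lower, against 8.88% and 7.43% of all genes, and edgeR 1 and 1, against 6.28% and 4.46%. At an unadjusted p under 0.05, 4 were higher and 3 lower, against 17% and 13.3% of all genes. The median log2 fold change was 0.01, while 12 were higher and 0 lower under total-count scaling, against 54.2% of all genes higher. Slbp, the stem-loop binding protein, had 215, 183, 218 and 154 normalized counts across VC and 199, 231, 219 and 265 across AP, with overlap (0.25, adjusted p = 0.383). Npat, the coactivator of histone genes, had 72.8, 82.8, 107 and 65.6 across VC and 94.3, 111, 143 and 142 across AP, with overlap (0.58, adjusted p = 0.142). Total-count scaling called both higher, Slbp with 1.12 (adjusted p = 0.00291) and Npat with 1.44 (0.00353). Sympk, a scaffold of 3′ end cleavage, had 586 to 873 and 717 to 734 (-0.03, adjusted p = 0.905), which turned to 0.84 under total-count scaling. Cstf2, a cleavage stimulation factor, had 144, 124, 186 and 109 across VC and 186, 268, 300 and 307 across AP, where the lowest AP value was close to the highest VC value. It rose with a log2 fold change of 0.91 (adjusted p = 0.0327). The call was lost without AP.2 (0.0821), AP.3 (0.107), AP.4 (0.0947), VC.1 (0.0575), VC.2 (0.0576) or VC.4 (0.0613), and at even depth (0.0537). Lsm10, a component of the U7 particle that was chosen for mention after its values were seen, had 96.4, 148, 108 and 165 across VC and 73.3, 63.1, 59.3 and 87.3 across AP, without overlap. With a log2 fold change of -0.84 it did not pass in limma (adjusted p = 0.0563), passed in DESeq2 (0.0112) and edgeR (0.0492), and turned to 0.02 under total-count scaling.

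Of 16 histone chaperones, 0 rose and 1 fell in limma, against 6.33% and 4.0% of all genes tested. DESeq2 called 0 higher and 1 lower, against 8.88% and 7.43% of all genes, and edgeR called 0 and 0, against 6.28% and 4.46%. At an unadjusted p under 0.05, 2 were higher and 3 lower, against 17% and 13.3% of all genes. The median was -0.11, while 12 were higher and 0 lower under total-count scaling, where 54.2% of all genes were higher. Nap1l1, which carries H2A and H2B, had 2790, 1911, 1731 and 2333 across VC and 1396, 1296, 1426 and 1528 across AP, without overlap. Its log2 fold change was -0.61 (adjusted p = 0.0452), it turned to 0.26 under total-count scaling, and edgeR gave an adjusted p of 0.0506. The call was lost without AP.1 (0.0665), AP.2 (0.114), AP.3 (0.115), AP.4 (0.0885), VC.1 (0.0910), VC.2 (0.0522) or VC.4 (0.0816), with no filter (0.0505) and at even depth (0.0507).

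Genes of DNA replication mark cells in S phase. Of 32 S phase genes, 2 rose and 1 fell in limma, against 6.33% and 4.0% of all genes tested. DESeq2 called 3 higher and 2 lower, against 8.88% and 7.43% of all genes, and edgeR 2 and 1, against 6.28% and 4.46%. At an unadjusted p under 0.05 in limma, 4 were higher and 3 lower, against 17% and 13.3% of all genes. The median log2 fold change was -0.06, and their summed normalized counts were 8989 ± 1342 in VC and 9270 ± 1761 in AP (SD, n = 4). Under total-count scaling 16 of them were higher and 0 lower, against 54.2% of all genes tested higher. Rrm1, a subunit of ribonucleotide reductase, had 442, 468, 335 and 309 across VC and 503, 536, 807 and 826 across AP, without overlap, and rose (0.77, adjusted p = 0.0450). Its call was lost without AP.2 (0.0679), AP.3 (0.139), AP.4 (0.124), VC.1 (0.0640), VC.3 (0.0821) or VC.4 (0.0884), at even depth (0.0559) and with upper-quartile scaling (0.0515). Pola1, the catalytic subunit of DNA polymerase alpha, had 70.9, 88.7, 83.3 and 73.1 and then 117, 136, 189 and 175, without overlap, and rose (0.94, adjusted p = 0.0295). Its call was lost without AP.2 (0.0653), AP.3 (0.110), AP.4 (0.0917) or VC.1 (0.0546). Dut, which removes dUTP, had 455, 434, 507 and 321 and then 251, 259, 266 and 280, without overlap, and fell (-0.68, adjusted p = 0.0326), which turned to 0.19 under total-count scaling. Its call was lost in 7 of 8 leave-outs, without AP.1 (0.0504), AP.2 (0.0807), AP.3 (0.0926), AP.4 (0.0748), VC.1 (0.0671), VC.2 (0.0550) or VC.3 (0.0599), at even depth (0.0563) and with scaling by totals without mitochondrially encoded genes (0.0526). Mcm2, a helicase subunit, had 268 to 384 in VC and 321 to 579 in AP (0.39, adjusted p = 0.250). Pcna, the sliding clamp, had 735 to 1066 and 826 to 1229 (0.07, adjusted p = 0.816). Rrm2, the other reductase subunit, had 388 to 525 and 288 to 458 (-0.35, adjusted p = 0.227), and E2f1, which drives S phase genes, had 175 to 229 and 119 to 212 (-0.34, adjusted p = 0.313). Under total-count scaling Rrm2 turned to 0.52 and E2f1 to 0.53, while Mcm2 (1.26, adjusted p = 0.00292) and Pcna (0.94, 0.00288) were called higher.

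Of 22 G2 and M phase genes, 0 rose and 1 fell in limma, against 6.33% and 4.0% of all genes tested. DESeq2 called 0 higher and 2 lower, Birc5 and Ube2c, against 8.88% and 7.43% of all genes. In edgeR 0 were higher and 1 lower, against 6.28% and 4.46%. At an unadjusted p under 0.05, 1 was higher and 3 lower, against 17% and 13.3% of all genes. The median was 0.08, while 14 were higher and 0 lower under total-count scaling, beside 54.2% of all genes higher. Ube2c, a ubiquitin carrier of mitosis, had 3760, 5246, 3390 and 2220 normalized counts across VC and 3082, 738, 576 and 907 across AP, where AP.1 lay within the VC range. Its log2 fold change was -1.74 (adjusted p = 0.0345). The call was lost without AP.2 (0.0927), AP.3 (0.105), AP.4 (0.0893), VC.1 (0.0753), VC.2 (0.0680) or VC.3 (0.0583), under total-count scaling (0.116) and in edgeR (0.0679). Mki67, a proliferation marker, had 797 to 1921 in VC and 907 to 1931 in AP (-0.08, adjusted p = 0.870), which turned to 0.79 under total-count scaling. Top2a, a topoisomerase of dividing cells, had 555 to 1005 and 762 to 1517 (0.38, adjusted p = 0.312), and under total-count scaling it was called higher (1.25, adjusted p = 0.00511). Of 15 RNAs that lack a polyA tail, 1 was listed, Rmrp, with 0, 1.48, 8.19 and 0 across VC and 2.18, 0, 0.498 and 2.86 across AP, and it was too low to be tested.

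Cell type markers differed between the groups beside these results, and their part in the results was not tested. Counts of markers that rose or fell are from limma unless another tool is named, and 6.33% of all genes tested were higher there and 4.0% lower. Of 11 suprabasal keratinocyte markers, 9 rose and 0 fell. Their summed normalized counts, led by Krt10, were 6376, 13105, 9043 and 5895 across VC and 43562, 41834, 121938 and 172065 across AP, an 11-fold higher mean in AP without overlap. Of 9 basal keratinocyte markers, led by Krt14, 4 rose and 0 fell, with sums of 29212, 83495, 52812 and 24981 and then 55521, 55431, 103521 and 146632. Of 6 endothelial markers, led by Pecam1, 2 rose and 0 fell, with sums of 786, 671, 1342 and 1472 and then 2243, 5620, 2019 and 2114. Of 8 hair matrix markers, led by Krt71, 1 rose and 0 fell, with sums of 4313, 3127, 4712 and 1063 and then 3154, 15859, 16388 and 5156. Of 5 red blood cell markers, led by Hbb-bs, 1 rose and 0 fell, with sums of 780, 507, 905 and 553 and then 1077, 1550, 683 and 752. Of 9 leukocyte markers, led by Cd74, 1 rose and 0 fell, with sums of 17507, 10324, 7470 and 25875 and then 12824, 8542, 7985 and 8466. Of 8 fibroblast markers, led by Col1a1, 0 rose and 0 fell, with sums of 115309, 77695, 80255 and 216718 and then 251315, 188408, 135613 and 96388. Of 8 skeletal muscle markers, led by Acta1, 0 rose and 0 fell, with sums of 44605, 69369, 35257 and 35164 and then 69051, 8813, 5212 and 11275. AP.1 was far above the other AP libraries. Without it 8 of the 8 muscle markers fell, against 5.12% of all genes tested, while 0 fell without any other single library. Of 6 adipocyte markers, led by Cfd, 0 rose and 0 fell, with sums of 33145, 9425, 10485 and 19924 and then 22291, 31197, 15130 and 12416. DESeq2 called 10 suprabasal, 4 basal, 5 endothelial, 3 hair matrix, 2 leukocyte and 1 red blood cell marker higher, against 8.88% of all genes. In the same order edgeR called 9, 3, 2, 2, 1 and 1, against 6.28% of all genes. In DESeq2 1 leukocyte marker (Lyz2, adjusted p = 0.0147) and 1 red blood cell marker (Hba-a2, 0.0432) were lower, against 7.43% of all genes. In every list edgeR called 0 lower, against 4.46% of all genes. Neither tool called a fibroblast, muscle or adipocyte marker. At an unadjusted p under 0.05 in limma, 10 suprabasal, 6 basal, 5 endothelial, 4 hair matrix, 4 leukocyte, 2 fibroblast, 1 adipocyte, 1 red blood cell and 0 muscle markers were higher, against 17% of all genes. At the same threshold 6 muscle, 1 leukocyte and 1 red blood cell marker were lower and 0 in the other lists, against 13.3% of all genes. Under total-count scaling the counts higher were 11 of 11 suprabasal, 9 of 9 basal, 6 of 6 endothelial, 8 of 8 fibroblast, 5 of 8 hair matrix, 5 of 9 leukocyte, 3 of 6 adipocyte, 3 of 5 red blood cell and 0 of 8 muscle markers, with 0 lower, against 54.2% of all genes tested higher. Leaving out 1 library at a time gave 8 to 10 suprabasal markers higher, 1 to 4 basal, 1 to 4 endothelial, 1 to 3 hair matrix, 0 to 1 red blood cell and 0 to 2 leukocyte markers. Of all genes tested, 1.31% to 6.78% were higher and 0.589% to 5.12% lower in these fits. The basal count was 1 without AP.3, AP.4, VC.1 or VC.4 and 2 without AP.2. The endothelial count was 4 without VC.4, 3 without VC.3, and 1 without AP.2, AP.3, AP.4, VC.1 or VC.2. The hair matrix count was 3 without AP.1, and 1 hair matrix marker was lower without VC.4. The red blood cell count was 0 without AP.2, AP.4 or VC.1. The leukocyte count was 2 without AP.1 and 0 without AP.2, AP.3, AP.4, VC.1 or VC.4, and 1 leukocyte marker was lower without VC.3. Alas2 of the red blood cell list was at 0 in at least 1 library, and no other marker was. A figure legend of the study gives 4 mice in each group for these data, and the labels do not say which mouse gave which library.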

How the data were processed

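The deposited signal values are gene counts that the authors divided by 1 DESeq2 size factor per library. Per the study, reads were aligned to mm10 with STAR and counted per gene, with featureCounts in the methods and HTSeq in the processing notes. The deposited log2 fold changes and their errors, the Wald statistic (a score per gene) and the p-value columns come from the authors' own DESeq2 comparison and were not used. Of 150160 values, 150160 (100%) were whole multiples of 1 step per library within 0.001 reads, so reads were recovered from them. The comparison was limma 3.58.1 with intensity trend in R 4.3.3 on log2(value + 1), for genes that reached 3 normalized counts in 4 or more libraries, adjusted by Benjamini-Hochberg over every gene in the fit. edgeR 4.0.16, planned for count values, and DESeq2 1.42.0 were run on recovered reads and called 1715 and 3061 genes. Code was tested on simulated data. Single genes were compared by an exact two-sided permutation test.

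Genes named were the members with an adjusted p under 0.05 or with p under 0.01 and a fold change over 1.5; the 3 with the highest level per kb in each class; the largest and smallest fold change among members with a mean of at least 20; H1f0; in each companion list other than the cell types the genes passing and the one with the highest mean; and Slbp, Npat, Mcm2, Pcna, Rrm2, E2f1, Mki67, Top2a, H2az1, H3f3a and H3f3b. Lists were replacement histones, histone mRNA processing, histone chaperones, S phase, G2 and M phase, RNAs without polyA tail and 9 cell types. Members and lists were chosen with earlier results of these data known. Transcript models were those of GENCODE M21, the longest protein-coding one of each gene. Alternatives were other scalings, tests, pseudocounts and filters, even depth, and leaving out each library. Leaving out both replacement H1 genes, other denominators of the share of reads, and sums without H2bc4, were added after seeing the data, as were the promoter motifs.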

Additional observations from a re-analysis of the deposited data

Results flagged for a closer look

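In 6 of 92 groups of 4 libraries, a single library lay far from the other libraries of its group. Chance does this in about 1 in 20 groups. E2f1 was at 175 normalized counts in VC.1, against 226 to 229 in the other VC libraries. H2ac19 was at 6.83 in VC.3, against 0 in the others. H2az2 was at 1384 in VC.1, against 700 to 761. H4c8 was at 13.5 in AP.3, against 20 to 21 in the other AP libraries. Mcm2 was at 268 in VC.4, against 375 to 384. Ube2c was at 3082 in AP.1, against 576 to 907.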

How the results depend on the processing

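Total-count scaling changed most: 8727 genes passed in place of 1650, 4 members were higher (H1f0, H1f2, H2ac19, H2bc21; 12.9%, against 54.2% of all genes), 0 were lower, the members' median turned to 0.17 and their share of reads to a ratio of 1.33. Log2 fold changes turned to 0.65 for H1f0, 0.63 for H1f2, 0.17 for H2ax, 0.06 for H2az2 and 0.84 for H3f3a. They turned to 0.62 for H3f3b, 0.26 for Nap1l1, 0.84 for Sympk and 0.19 for Dut. Of the genes named by the rule above, 6 called in neither setting also changed sign. These turned to 0.71 for H2ac8, 0.49 for H4c8, 0.27 for H4c9, 0.53 for E2f1, 0.52 for Rrm2 and 0.79 for Mki67. Outside that rule, other genes called in neither setting changed sign, among them Lsm10 (0.02), H2aw (0.37) and H2ac6 (0.17). The cause was not tested. DESeq2 called 3061 genes, and 4 members lower (H1f10, H1f4, H2bc11 and H2bc4, or 7.14%, against 7.43% of all genes). With no filter 1 member was higher (H2ac19, or 1.79%, against 5.26% of all genes). The cause of these changes was not tested. Without H1f0 the share ratio was 0.623 in place of 0.741, and without both replacement H1 genes 1 member was lower, since H1f10 was left out. Leaving out each library gave 303 to 1899 genes passing, a median of -0.67 to -0.47 and a share ratio of 0.695 to 0.794. It gave 0 to 1 members higher, against 1.31% to 6.78% of all genes, and 1 to 2 lower, against 0.589% to 5.12%. The 1 higher was H2ac19 without VC.3, where no other VC library had a read on it. Of 402 values of single genes under the other settings, 361 kept direction and side of the threshold, and of 296 with a library left out 234 did. No paired analysis was possible because the sample titles share no number between the groups. Depth limits the members: 45 of 56 had a mean under 20 normalized counts.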

Other observations

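Outside the rule, which was applied to the symbols of the deposited table, 8 other genes held the stem-loop letters within 150 bases of the stop. H2aw, H2bu2 and H4f16 are Hist3h2a, Hist3h2ba and Hist4h4 in GENCODE M21, older symbols that the rule would match, and Hist1h1t and Hist1h2ao were not listed. Of these, 5 were listed, H2ax, H2aw, H2bu2, H4f16 and Lrrc75b, and they were chosen for mention after their values were seen. H2ax, described among the replacement histones, was the one called (log2 fold change -0.70, adjusted p = 0.0304 in limma, turning to 0.17 under total-count scaling). H2aw had 10.9, 57.6, 35.5 and 13.1 normalized counts across VC and 24.7, 14.0, 13.5 and 17.9 across AP, with overlap (log2 fold change -0.44, adjusted p = 0.620 in limma). H2bu2 had 81.9, 22.2, 38.2 and 20.6 across VC and 23.2, 11.3, 11.5 and 23.6 across AP, with overlap (-1.04, adjusted p = 0.193). H4f16 had 11 reads over the 8 libraries and was not tested. Lrrc75b, which encodes no histone, had 16.4, 11.8, 19.1 and 37.5 across VC and 18.9, 57.7, 57.8 and 15 across AP, with overlap (0.67, adjusted p = 0.438; 1.5 and 0.0408 under total-count scaling). Under that scaling H2aw turned to 0.37.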
